A study of Mus musculus with 48 samples.

Results

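Lonrf3, Inhbb, Cplx2, Dhrs7 and Sdc4 are 5 mouse genes outside the core circadian clock, out of 25229 gene symbols in the count table, and they were taken by name because earlier results of these data showed 24-h rhythms that differed between the arcuate nucleus and the nodose ganglion. They were selected on the measured 24-h rhythms themselves, within each tissue and between the tissues, so amplitudes and peak times are described below without a test. Comparisons that did not enter the choice, between genotypes and of the 12-h component, are given with their tests. All 5 genes passed the filter on low counts in both tissues.

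The libraries came from male mice on a C57Bl/6J background, 10 to 12 weeks old, that all carried floxed alleles of both REV-ERB genes (Reverb a/b fl/fl) and ate chow under 12 h of light and 12 h of darkness. A tail vein injection of AAV8-TBG-EGFP made the Control group and one of AAV8-TBG-Cre made the HepDKO group. Both were given at 6 to 10 weeks of age. The housing temperature was 27 °C and the housing time 2 to 4 weeks in all groups. TBG is a hepatocyte promoter, so Cre was directed at the liver and not at the tissues that were sequenced. Zeitgeber time (ZT) counts hours from lights on, and tissue was collected at ZT4, ZT10, ZT16 and ZT22. Crossing 2 tissues, 2 genotypes and 4 times gave 16 groups of 3 libraries, 48 in all. Each library was a pool: arcuate micropunches of 3 mice by the sample protocol, 3 to 4 by the series design, or left nodose ganglia of 4 mice. P-values therefore measure the spread between pools, and arcuate and nodose libraries were prepared separately, so an effect of tissue and one of preparation cannot be told apart.

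Clock transcription factors drive daily rhythms of many transcripts, and which transcripts follow differs from tissue to tissue. Activators such as BMAL1 bind E-boxes, and REV-ERBs repress the gene of BMAL1 in turn. The arcuate nucleus of the hypothalamus holds neurons that control feeding, and the nodose ganglion holds the cell bodies of vagal sensory neurons. Lonrf3 encodes a protein with a LON domain and RING fingers, a domain type found in ubiquitin ligases. Inhbb encodes the βB subunit of activin B and inhibin B, secreted ligands of the TGF-β family. Cplx2 encodes complexin 2, which binds the SNARE complex at the synaptic vesicle. Dhrs7 encodes a short-chain dehydrogenase/reductase, and Sdc4 encodes syndecan-4, a heparan sulfate proteoglycan of the cell surface found at focal adhesions.

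By GENCODE release M21 on GRCm38 (mm10), all 5 are protein-coding genes. Lonrf3 lies at chrX:36328353-36362341 on the plus strand and Cplx2 at chr13:54371349-54383917 on the plus strand. Inhbb lies at chr1:119415465-119422248, Dhrs7 at chr12:72650353-72664909 and Sdc4 at chr2:164424247-164443887, these 3 on the minus strand. Promoters of RefSeq GRCm38.p6, 250 bases before to 50 after each start, were searched on both strands for 10 motifs: E-box CACGTG, E-prime box CACGTT, D-box TTATGTAA and its variant TTACGTAA, ROR element core TAGGTCA, CRE TGACGTCA, MyoD-type E-box CAGCTG, and the MEF2 box, glucocorticoid element and heat shock element, whose patterns hold unspecified bases. The E-box was found in Lonrf3, 45 bases upstream of the RefSeq start, and in 7.15% of the 32851 promoters of that length. The MyoD-type E-box was found in Cplx2, 162 bases upstream, in Dhrs7, 204 bases upstream, and in 16.3% of all promoters. For Cplx2 this RefSeq promoter lies upstream of the whole GENCODE gene, so the 2 annotations place its start differently. None of the 10 motifs was found in the windows of Inhbb and Sdc4. Windows of 30 bases around these matches are shown because they are the only matches among the 5 genes, with the motif in capitals.
Lonrf3 E-box, chrX:36328352-36328381, plus strand: cgtggtaggagtCACGTGgttgcgttttat
Cplx2 MyoD-type E-box, chr13:54302382-54302411, plus strand: gagcggagcctaCAGCTGaacaggtaggtg
Dhrs7 MyoD-type E-box, chr12:72665015-72665044, minus strand: tcgtcctaaaaaCAGCTGttaaagactcct

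Lonrf3 and Inhbb both peaked in the early to middle dark phase in nodose ganglion, so the sequence upstream of each GENCODE gene is shown for comparison, from RefSeq GRCm38.p6. RefSeq places the start of Lonrf3 downstream of the GENCODE one, so the E-box above lies inside the GENCODE gene and outside this stretch. The Lonrf3 stretch of 194 bases was 45.4% G and C, and the Inhbb stretch of 250 bases was 68.0%. Over the 250 bases upstream of the start, the median of all promoters was 52.4%.
Lonrf3, chrX:36328159-36328352, plus strand: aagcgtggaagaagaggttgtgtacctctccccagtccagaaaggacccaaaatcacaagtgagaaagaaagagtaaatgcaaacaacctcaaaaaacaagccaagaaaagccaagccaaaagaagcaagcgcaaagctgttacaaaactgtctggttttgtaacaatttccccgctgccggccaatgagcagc
Inhbb, chr1:119422249-119422498, minus strand: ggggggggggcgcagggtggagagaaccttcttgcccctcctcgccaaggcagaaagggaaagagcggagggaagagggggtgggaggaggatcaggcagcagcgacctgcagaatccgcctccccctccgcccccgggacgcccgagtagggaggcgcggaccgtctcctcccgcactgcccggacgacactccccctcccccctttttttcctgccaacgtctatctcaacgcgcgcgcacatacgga

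Arcuate libraries held 15483922 to 20399718 counts and nodose libraries 1813994 to 10422914, the shallowest being Control ZT4 replicate 1. In each tissue 1 library labelled HepDKO at ZT10 held Xist, the RNA of the inactive X chromosome in females, although all mice were labelled male: 1914 counts in arcuate replicate 3 and 1694 in nodose replicate 2, against at most 10 and 13 counts in the other libraries. In nodose libraries 5 skeletal muscle markers took a median of 2.72% of counts (0.407% to 5.83%) and 5 Schwann cell markers 2.23%, while 6 neuron markers took 0.00228%, against 0.259% in arcuate. Only 2 of 8 vagal sensory neuron markers, Trpv1 and Piezo2, passed the low-count filter in nodose, so the labelled tissue showed few transcripts of its defining neurons. In bulk tissue, fewer cells of a type and less RNA per cell cannot be told apart.

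Lonrf3 and Inhbb were 3.33-fold and 3.15-fold higher in nodose ganglion at ZT16 than at ZT4, Cplx2 was lower at ZT16 than at ZT4 there, and all 3 were close to flat in arcuate nucleus. Dhrs7 and Sdc4 differed in another way: averaged over genotypes, their fitted amplitudes were alike in both tissues, but their fitted peaks lay 11.1 and 10.9 h apart. For Dhrs7 this did not show in Control alone, where the nodose amplitude, 0.07 ± 0.0838, was below its SE and the arcuate one was 0.19 ± 0.0457. For Sdc4 the nodose amplitude was 0.18 ± 0.0917 in Control and 0.23 ± 0.0916 in HepDKO. In the averages over genotypes the label of a tissue-specific rhythm describes the amplitude of Lonrf3, Inhbb and Cplx2 and the phase of Dhrs7 and Sdc4. Levels below are counts scaled to library size (CPM) with TMM factors within a tissue, given as mean ± SD over libraries. Amplitude is the 24-h component from mean to peak on the log2 scale, averaged over both genotypes unless a genotype is named, with its SE.

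**Figure D1:**
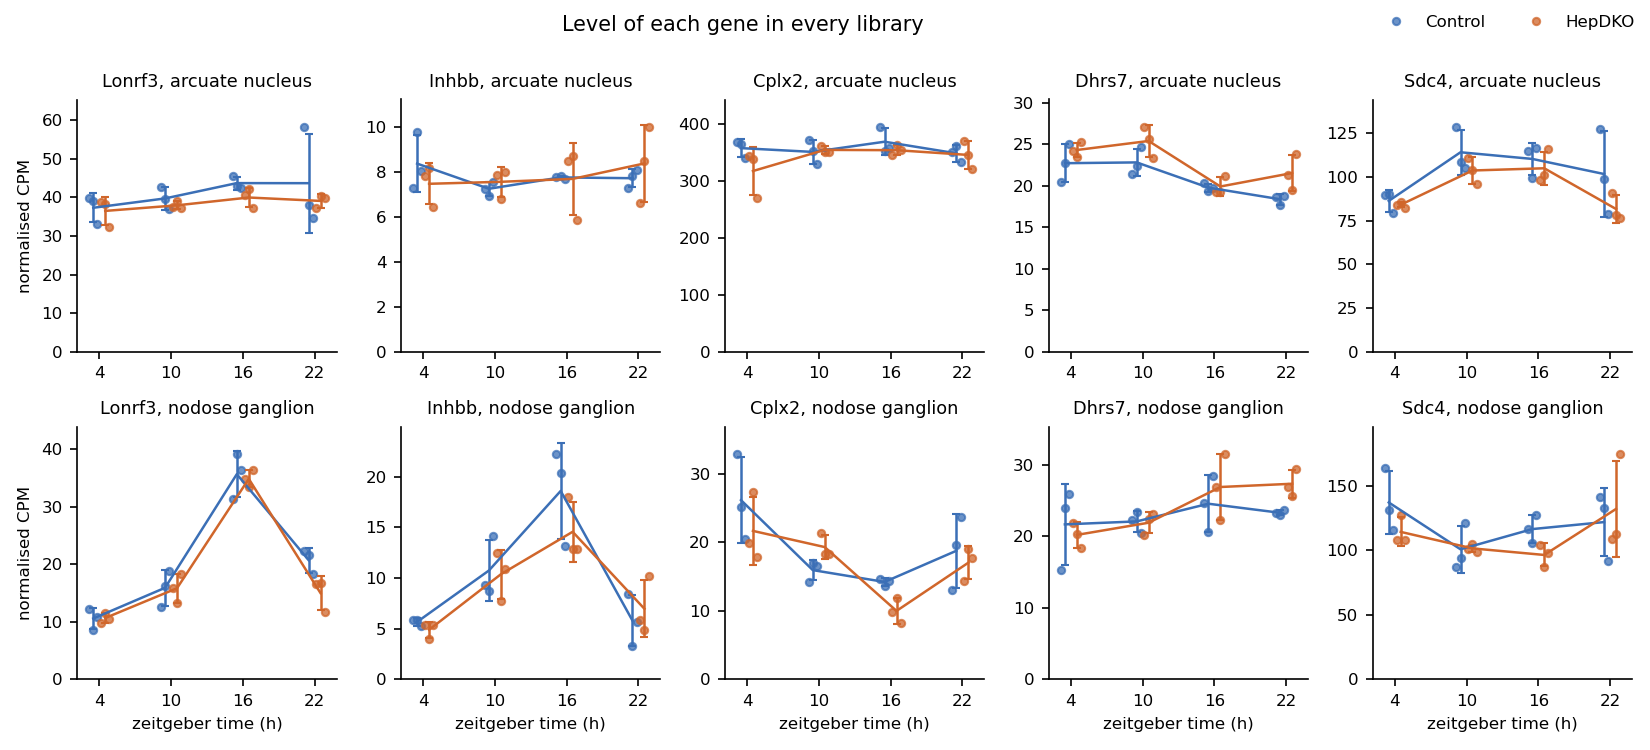
Normalised CPM of the 5 genes (columns) in arcuate nucleus (upper row) and nodose ganglion (lower row) against zeitgeber time in hours, with 1 point for each library and lines through the group means with SD (n = 3) for Control (blue) and HepDKO (orange). All 6 nodose libraries at ZT16 lay above all 6 at ZT4 for Lonrf3 and Inhbb and below them for Cplx2.

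In nodose ganglion Lonrf3 stood at 12.3, 8.5 and 10.8 CPM in Control at ZT4, 12.6, 16.2 and 18.8 at ZT10, 31.3, 39.2 and 36.4 at ZT16, and 22.3, 21.5 and 18.2 at ZT22. In HepDKO the Lonrf3 values were 9.78, 11.6 and 10.5 CPM at ZT4, 15.9, 13.3 and 18.3 at ZT10, 34.8, 33.4 and 36.3 at ZT16, and 16.5, 16.7 and 11.6 at ZT22. The 6 libraries at ZT16 were the highest of the 24, and they overlapped with no library of another time. Over both genotypes ZT16 averaged 35.2 ± 2.7 CPM (n = 6) and ZT4 averaged 10.6 ± 1.33 (n = 6), a ratio of 3.33. ZT22, at 17.8 ± 3.89 CPM, and ZT10, at 15.8 ± 2.53, overlapped with each other, and ZT10 lay above ZT4 in every library. The amplitude of Lonrf3 was 0.88 ± 0.0645 with a fitted peak at ZT16.3 ± 0.271 h. Control gave 0.92 ± 0.0940 and ZT16.8 ± 0.364 h, and HepDKO gave 0.86 ± 0.0881 and ZT15.8 ± 0.398 h.

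In arcuate nucleus Lonrf3 ranged from 32.3 to 58.3 CPM with a median of 39.1. The highest library was Control ZT22 replicate 1, at 58.3 CPM against 38.0 and 34.6 in its group, and the next highest of all was 45.6. Means went from 36.9 ± 3.32 CPM at ZT4 (n = 6) to 41.8 ± 2.80 at ZT16 (n = 6), and every pair of neighbouring times overlapped. The arcuate amplitude was 0.10 ± 0.0446, which is 0.78 ± 0.0784 below the nodose one, with a peak at ZT17.8 ± 1.70 h. Without Control ZT22 replicate 1 the arcuate peak moved to ZT15.1, and no other single library moved it by as much. That library also had the highest neuron and oligodendrocyte marker shares of the 24 arcuate libraries, 0.294% and 0.264% of counts, and the lowest tanycyte share, 0.0134%; their part in the value was not tested. Lonrf3 is X-linked, and without the Xist-bearing library its amplitude was 0.10 in arcuate and 0.89 in nodose. Without these libraries the amplitudes of Inhbb, Cplx2, Dhrs7 and Sdc4 were 0.07, 0.05, 0.19 and 0.22 in arcuate and 0.93, 0.49, 0.18 and 0.21 in nodose.

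Inhbb, the ligand subunit, showed the widest relative spread of the 5 in nodose ganglion. Its Control libraries held 5.89, 5.87 and 5.21 CPM at ZT4, 9.30, 8.74 and 14.2 at ZT10, 22.3, 20.3 and 13.2 at ZT16 and 8.40, 3.30 and 5.66 at ZT22. HepDKO libraries held 5.32, 3.97 and 5.34 CPM at ZT4, 12.5, 7.70 and 10.9 at ZT10, 18, 12.8 and 12.9 at ZT16 and 5.84, 4.84 and 10.2 at ZT22. Libraries at ZT16 lay above all those at ZT4 and ZT22, but their lowest, 12.8 CPM, lay below the highest at ZT10. The mean was 16.6 ± 4.19 CPM at ZT16 (n = 6), 10.5 ± 2.44 at ZT10, 6.37 ± 2.50 at ZT22 and 5.27 ± 0.699 at ZT4 (n = 6), and the last 2 of these overlapped. ZT16 was 3.15 times ZT4. These levels rest on few reads, from 12 to 188 counts a library. The amplitude was 0.90 ± 0.114 and the peak ZT14.5 ± 0.470 h, with 0.98 ± 0.164 in Control and 0.84 ± 0.157 in HepDKO.

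Arcuate Inhbb ranged from 5.86 to 10.0 CPM with a median of 7.79, on 100 to 178 counts a library. The time means lay between 7.40 ± 0.489 CPM at ZT10 (n = 6) and 8.04 ± 1.16 at ZT22 (n = 6), and all times overlapped. Its amplitude, 0.06 ± 0.0558, was about the size of its SE, so the fitted peak at ZT23.1 ± 3.43 h carries little information. Without HepDKO ZT22 replicate 3 the amplitude was 0.0275, and without replicate 1 of that group it was 0.0976.

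Cplx2, the vesicle fusion regulator, ran the other way from Lonrf3 and Inhbb in nodose ganglion. Control libraries held 32.9, 25.1 and 20.4 CPM at ZT4, 14.2, 17.0 and 16.5 at ZT10, 14.6, 13.5 and 14.4 at ZT16 and 12.9, 19.6 and 23.6 at ZT22. HepDKO libraries held 19.8, 27.3 and 17.8 CPM at ZT4, 21.3, 18.3 and 18.3 at ZT10, 9.75, 11.9 and 8.21 at ZT16 and 14.3, 18.9 and 17.7 at ZT22. All 6 libraries at ZT4 lay above all 6 at ZT16, while ZT10 and ZT22 lay between and overlapped with each other and with both. The mean was 23.9 ± 5.64 CPM at ZT4 (n = 6) and 12.1 ± 2.62 at ZT16 (n = 6), a ratio of 1.98. Its nodose amplitude was 0.49 ± 0.0766 and the peak ZT3.95 ± 0.578 h, 11.2 ± 2.00 h away from the arcuate fit. Control gave 0.44 ± 0.108 and HepDKO 0.57 ± 0.108.

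In arcuate nucleus Cplx2 ranged from 269.7 to 396 CPM with a median of 352, and all times overlapped. The lowest value was HepDKO ZT4 replicate 3, where the other 2 libraries of the group held 344 and 339 CPM. The arcuate amplitude was 0.05 ± 0.0259 with a peak at ZT15.1 ± 1.91 h, and without that library it was 0.03.

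**Figure D2:**
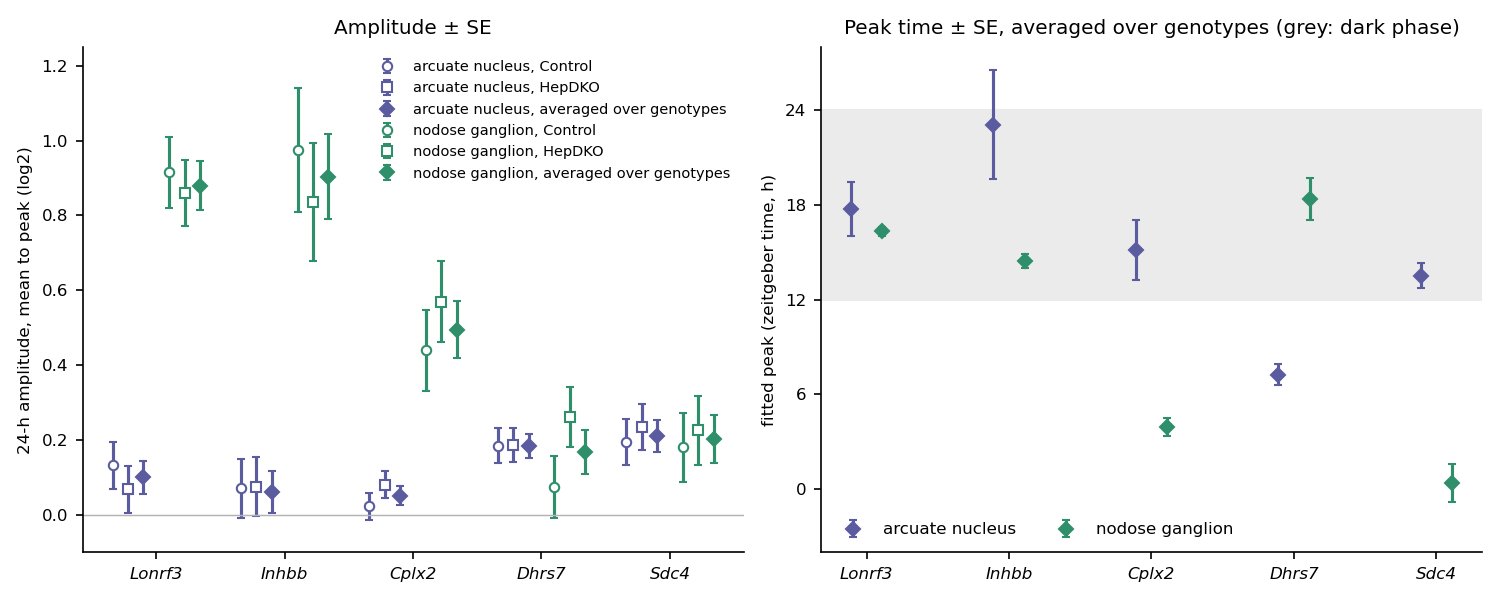
Left, 24-h amplitude (log2, mean to peak) ± SE of each gene in arcuate nucleus (purple) and nodose ganglion (green), for Control (circles), HepDKO (squares) and the average over genotypes (filled diamonds). Right, fitted peak ± SE in zeitgeber hours averaged over genotypes, where Dhrs7 and Sdc4, with averaged amplitudes of 0.17 to 0.21 in both tissues, lie 11.1 and 10.9 h apart.

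Dhrs7, the short-chain dehydrogenase/reductase, had higher means in the light phase in arcuate nucleus. Control libraries there held 20.4, 22.7 and 25 CPM at ZT4, 21.4, 22.4 and 24.6 at ZT10, 20.3, 19.3 and 19.7 at ZT16 and 18.7, 17.6 and 18.8 at ZT22. HepDKO libraries held 24.2, 23.5 and 25.2 CPM at ZT4, 27.1, 25.7 and 23.4 at ZT10, 19.3, 19.2 and 21.2 at ZT16 and 21.3, 19.4 and 23.8 at ZT22. All 6 libraries at ZT10 lay above all 6 at ZT16, with means of 24.1 ± 2.13 and 19.8 ± 0.781 CPM (n = 6 each) and a ratio of 1.21. Every other pair of times overlapped, light with dark times included. The amplitude was 0.18 ± 0.0321 and the peak ZT7.24 ± 0.665 h.

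In nodose ganglion the means of Dhrs7 were higher in the dark phase. Control libraries held 15.2, 23.9 and 25.8 CPM at ZT4, 22.3, 23.4 and 20.5 at ZT10, 24.6, 20.6 and 28.5 at ZT16 and 23.2, 22.9 and 23.6 at ZT22. HepDKO libraries held 21.9, 20.4 and 18.3 CPM at ZT4, 20.2, 22.4 and 23.0 at ZT10, 26.8, 22.3 and 31.5 at ZT16 and 26.9, 25.6 and 29.4 at ZT22. The lowest value, 15.2 CPM, came from the shallowest library and rests on 31 counts. ZT16, the highest mean, was 1.23 times ZT4, the lowest, and their libraries overlapped. The amplitude was 0.17 ± 0.0583 and the peak ZT18.4 ± 1.32 h, 11.1 ± 1.48 h from the arcuate peak. By genotype the amplitude was 0.07 ± 0.0838 in Control and 0.26 ± 0.0813 in HepDKO, and the test of this difference, given with the genotype comparisons, did not pass. Without Control ZT4 replicate 1 the amplitude was 0.14 over both genotypes and 0.0374 in Control, and without Control ZT4 replicate 3 it was 0.147 in Control.

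Sdc4, the cell-surface proteoglycan, had its lowest mean over both genotypes at ZT4 in arcuate nucleus. Control libraries held 89.6, 90.1 and 79.2 CPM at ZT4, 129, 108 and 105 at ZT10, 115, 99.6 and 116 at ZT16 and 127, 98.9 and 78.8 at ZT22. HepDKO libraries held 84.2, 85.6 and 82.5 CPM at ZT4, 111, 104 and 96.0 at ZT10, 98.3, 101 and 116 at ZT16 and 90.7, 78.0 and 76.4 at ZT22. Libraries at ZT10 all lay above those at ZT4, with means of 109 ± 11 and 85.2 ± 4.18 CPM (n = 6 each) and a ratio of 1.28. ZT10 overlapped with ZT16, and ZT22 overlapped with every other time. In HepDKO the ZT22 mean, 81.7 CPM, was below the ZT4 mean, 84.1, and the 3 lowest of the 24 libraries were at ZT22. The amplitude was 0.21 ± 0.0430 and the peak ZT13.5 ± 0.778 h. Control gave 0.20 ± 0.0608 and ZT14.3 ± 1.19 h, and HepDKO gave 0.24 ± 0.0609 and ZT12.9 ± 0.990 h.

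In nodose ganglion Sdc4 was lowest at ZT10 and ZT16. Control libraries held 164, 131 and 116 CPM at ZT4, 86.7, 93.7 and 121 at ZT10, 116, 105 and 127 at ZT16 and 141, 132 and 91.6 at ZT22. HepDKO libraries held 107, 127 and 108 CPM at ZT4, 101, 104 and 98.8 at ZT10, 104, 86.6 and 97.9 at ZT16 and 108, 113 and 175 at ZT22. The highest library, HepDKO ZT22 replicate 3, stood far above its group, and all times overlapped. ZT22 averaged 127 ± 29.3 CPM (n = 6) and ZT10 averaged 101 ± 11.7 (n = 6), a ratio of 1.26. The amplitude was 0.20 ± 0.0648 and the peak ZT0.40 ± 1.22 h, 10.9 ± 1.45 h from the arcuate peak. By genotype the amplitude was 0.18 ± 0.0917 in Control, with a peak at ZT0.66 ± 1.94 h. HepDKO gave 0.23 ± 0.0916 and ZT0.19 ± 1.55 h. Without HepDKO ZT22 replicate 3 the amplitude was 0.15 over both genotypes. In HepDKO alone the amplitude was then 0.137, and the peak moved to ZT2.10.

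Highest and lowest times did not overlap for 3 of the 5 genes in nodose ganglion and for 2 of 5 in arcuate nucleus, against 4.3% of 14867 and 6.16% of 16102 genes tested, a contrast that the choice of the genes used. Across all genes, a 24-h rhythm averaged over genotypes passed an adjusted p of 0.05 for 3.86% of genes in arcuate and 1.33% in nodose. Within a genotype the shares were 0.261% in Control and 0.379% in HepDKO for arcuate, and 0.242% and 0.121% for nodose. The difference of rhythm between tissues passed for 0.416% of 13937 genes. Core clock and output genes, which are the usual carriers of such rhythms, had a median nodose amplitude of 0.68 against 0.12 over all genes, so Lonrf3 and Inhbb lay above the median of the clock list and Cplx2 below it. In arcuate the clock list's median was 0.19 against 0.07 over all genes, close to the values of Dhrs7 and Sdc4.

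Whether the liver deletion changed these genes was tested by quasi-likelihood in edgeR, with p-values adjusted by Benjamini-Hochberg over all genes, and none of the 5 passed in either tissue. For HepDKO minus Control over the 4 times, 0% of genes passed in arcuate and 0% in nodose. Without adjustment 1387 and 497 genes had p under 0.05, and DESeq2 called 23 and 3. Dhrs7 in arcuate had the lowest adjusted p of the 5, with a log2 difference of 0.12 ± 0.0453 (SE, interval of 2 SE 0.03 to 0.21, adjusted p = 0.448 by edgeR). Sdc4 in arcuate followed at -0.14 ± 0.0608 (interval -0.26 to -0.02, adjusted p = 0.528 by edgeR). Lonrf3 in arcuate lay at -0.10, Cplx2 at -0.06 and Inhbb at -0.00045. Without Control ZT22 replicate 1 the arcuate differences were -0.0922 for Sdc4 and -0.0310 for Lonrf3, and without HepDKO ZT4 replicate 3 that of Cplx2 was -0.0314. In nodose the differences ran from -0.15 for Cplx2 to 0.06 for Dhrs7, and the interval of Inhbb, -0.42 to 0.22, was the widest. The value of Dhrs7 was 0.00942 without the shallowest library, and with the muscle score as a covariate Sdc4 went from -0.10 to -0.03 and Lonrf3 from -0.12 to -0.07. Without HepDKO ZT22 replicate 3 the nodose difference of Sdc4 was -0.172. A difference of the genotype effect between tissues passed for 0% of 17478 genes (827 unadjusted, 12 by DESeq2), and the 5 genes had adjusted p = 1.00 by edgeR, with the widest interval, -0.46 to 0.24, for Inhbb.

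**Figure D3:**
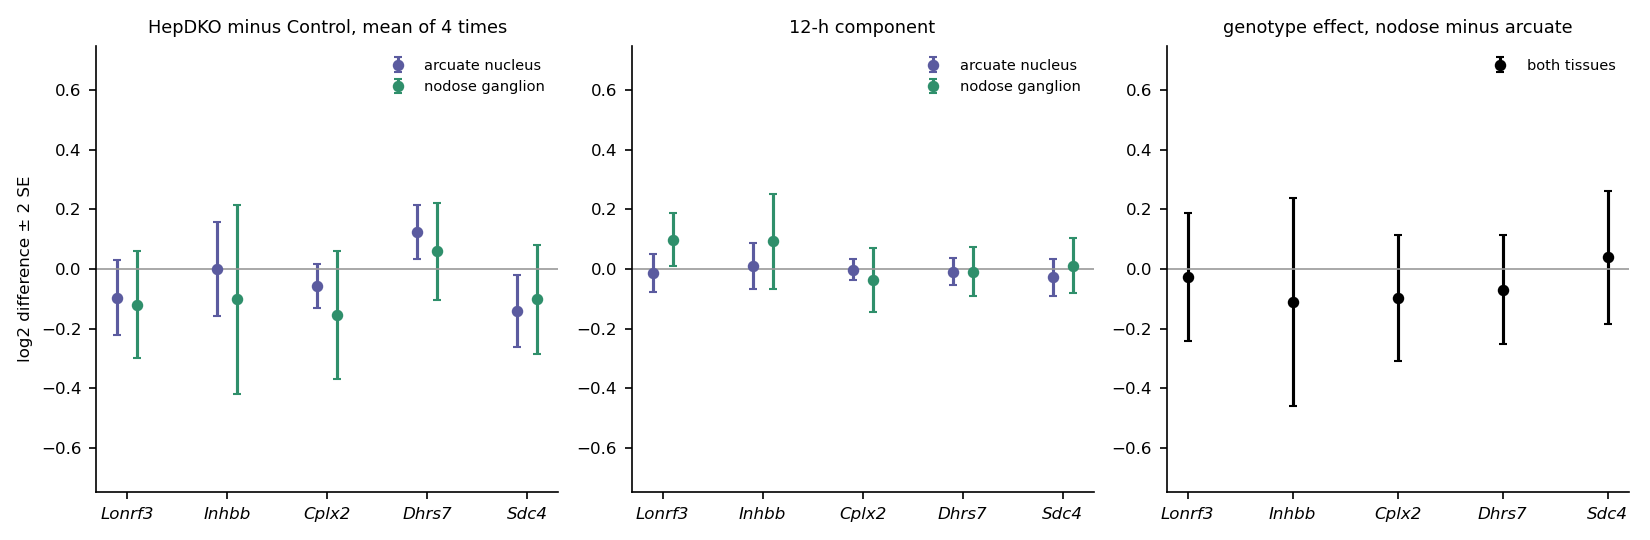
Log2 differences ± 2 SE of the 5 genes: HepDKO minus Control over the 4 times (left) and the 12-h component (middle) in arcuate nucleus (purple) and nodose ganglion (green), and the genotype difference in nodose minus that in arcuate (right). The interval leaves out 0 for Dhrs7 and Sdc4 in arcuate (left) and for Lonrf3 in nodose (middle), with adjusted p of 0.448, 0.528 and 0.708 by edgeR.

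Genotype at any of the 4 times gave no call either: 0% of genes passed in each tissue (775 and 349 unadjusted, 7 and 1 by DESeq2), and the adjusted p of the 5 genes was 0.977 to 0.982 by edgeR. The rhythm itself was compared between genotypes with 2 degrees of freedom, and 0% of genes passed in each tissue (382 and 421 unadjusted, 1 and 0 by DESeq2). In nodose the peak of Lonrf3 lay 0.976 ± 0.540 h earlier in HepDKO than in Control, and its rhythm difference had an adjusted p of 0.982 by edgeR. Dhrs7 in nodose had an amplitude 0.19 ± 0.117 higher in HepDKO, and its rhythm difference had an adjusted p of 0.982 by edgeR. For Cplx2 in nodose the peak lay 1.53 ± 1.16 h later in HepDKO, with an adjusted p of 0.982 by edgeR. These tests do not show that the genotypes act alike, and the SEs above bound the differences that these libraries could show.

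The 12-h component, which is not part of the 24-h contrast, described the shape of the time course. Sampling every 6 h misses a 12-h rhythm that peaks midway between sampled times, so low values do not show that none exists. It passed for 0.0124% of genes in arcuate (2 genes, 1143 unadjusted, 20 by DESeq2) and 0% in nodose (1029 unadjusted, 7 by DESeq2). Lonrf3 in nodose had the largest value, 0.10 ± 0.0449 (adjusted p = 0.708 by edgeR), where a positive value means higher levels at ZT4 and ZT16 than at ZT10 and ZT22. Inhbb in nodose had a like value with a larger error, 0.09 ± 0.0796, which was 0.0587 without Control ZT22 replicate 2 and 0.153 without replicate 1 of that group. The other 3 genes in nodose, and all 5 in arcuate, lay between -0.04 and 0.01.

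Levels differed between the tissues for all 5 genes, as they did for 92.1% of the 17478 genes tested over all 48 libraries, so the calls are near the background. Cplx2 was 18-fold lower in nodose than in arcuate (log2 difference -4.17 ± 0.0530) and Lonrf3 1.94-fold lower (-0.96 ± 0.0536), while 46.6% of all genes were called lower. Inhbb (0.36 ± 0.0871), Dhrs7 (0.30 ± 0.0455) and Sdc4 (0.41 ± 0.0558) were higher in nodose, as were 45.6% of all genes. The other 14 genes of the vesicle fusion list that were tested were all lower in nodose too, with a median size of 4.10 on the log2 scale against 1.17 over all genes.

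Relatives and pathway partners of the 5 genes mostly gave no 24-h call by the quasi-likelihood test of edgeR after Benjamini-Hochberg adjustment. With 3.86% of all genes called in arcuate and 1.33% in nodose, lists of this size would hold few calls, so the counts show nothing particular to them. Of the other LON RING genes, 0 of 2 passed in either tissue, with Lonrf1 at an amplitude of 0.35 ± 0.0805 and a peak at ZT13.6 in nodose. Of 14 tested activin and inhibin genes other than Inhbb, 0 passed in nodose and 1 in arcuate, the receptor Acvr1c with an amplitude of 0.28 ± 0.0498, a peak at ZT17.0 and an adjusted p of 0.00401 by edgeR. Acvr1c encodes ALK7, a receptor for activin B. In nodose 3 of these 14 genes had an unadjusted p under 0.05 by edgeR, as did 12.8% of all genes. The largest amplitudes there were those of Fstl3 (0.66 ± 0.168, peak ZT14.2, mean 3.16 CPM) and Fst (0.41 ± 0.115, peak ZT22.2). The median of the list was 0.09 in nodose. Vesicle fusion genes other than Cplx2 gave 0 of 14 calls in arcuate and 0 of 13 in nodose. Dhrs genes other than Dhrs7, listed together with the retinol dehydrogenases Rdh10, Rdh11 and Rdh14, gave 0 of 9 and 0 of 11, and syndecans, glypicans and heparan sulfate enzymes other than Sdc4 gave 0 of 17 in each. The median nodose amplitudes of the last 3 lists were 0.11, 0.11 and 0.08, against 0.12 over all genes. No gene of these 5 lists passed for the difference of rhythm between tissues, where 1, 3, 1, 2 and 2 of them, in the order given, had an unadjusted p under 0.05, as did 10.3% of all genes.

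Genes whose profile was most like each member's were taken by Pearson correlation of log2 CPM over the 24 libraries of a tissue. Time of day was left in, and depth and tissue makeup can also be shared. In nodose ganglion these were Mpzl2, Rwdd2a and Iqgap2 for Lonrf3 (r = 0.864 to 0.80), Mettl7a1, Cys1 and Ppl for Inhbb (0.879 to 0.85), and Shc3, Grin2b and Polr2a for Cplx2 (0.805 to 0.777). For Dhrs7 they were Pygl, Me1 and Pnpla3 (0.836 to 0.811), and for Sdc4 Apbb1, App and Akap12 (0.907 to 0.89). In arcuate nucleus Dhrs7 was most like Aldh3b1, Mvb12a and Wdr54 (0.825 to 0.791) and Sdc4 most like Klf15, Tsc22d3 and Lrrc8a (0.876 to 0.84). Arcuate Lonrf3 was most like Cdc37l1, Usp54 and Plcl1 (0.853 to 0.837), Inhbb most like Cldn2, Hat1 and Cgas (0.735 to 0.619), and Cplx2 most like Arel1, Sod2 and Gad2 (0.891 to 0.878). No gene was among the 3 nearest to a member in both tissues. Among the members themselves, nodose Lonrf3 had r = 0.69 with Inhbb and -0.726 with Cplx2. Nodose Inhbb had -0.632 and Dhrs7 -0.577 with Cplx2. The genes were selected on their 24-h rhythms, so these values between members are not independent of that choice.

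Marker shares of other tissues varied among nodose libraries, and the levels were set against them as deviations from the group mean, so that time and genotype do not enter. Over 55 such relations in both tissues (24 libraries each, 100000 permutations within groups, Benjamini-Hochberg adjusted), 4 passed by Pearson's r and 1 of these by Spearman's rho. Lonrf3 tended to be lower where muscle markers were higher (Pearson r = -0.504, Spearman rho = -0.571, permutation p = 0.0273, adjusted p = 0.181; r = -0.548 without the 2 farthest libraries). It tended to be higher where Schwann cell markers were higher (r = 0.538, rho = 0.552, permutation p = 0.0317, adjusted p = 0.181; 0.493 without the 2 farthest). Sdc4 had r = -0.469 with muscle markers (rho = -0.55, permutation p = 0.0379, adjusted p = 0.19; -0.397 without the 2 farthest), but r was -0.724 within Control and 0.249 within HepDKO. Sdc4 had r = 0.58 with fibroblast markers (rho = 0.64, permutation p = 0.0208, adjusted p = 0.164; 0.565 without the 2 farthest), with 0.768 within Control and 0.264 within HepDKO. None of these 4 passed the adjustment. With the muscle score as a covariate, nodose amplitudes were 0.87 for Lonrf3, 0.90 for Inhbb, 0.49 for Cplx2, 0.16 for Dhrs7 and 0.18 for Sdc4, and with muscle and adipocyte scores together 0.89, 0.80, 0.39, 0.15 and 0.16.

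Adipocyte markers, 5 genes, took a median of 0.108% of nodose counts at ZT10 and 0.115% at ZT16, against 0.0546% at ZT4 and 0.0685% at ZT22, so their median share was higher at the times when Inhbb was high, and Cplx2 was lowest at ZT16; their part in these rhythms was not tested. Within groups Dhrs7 had r = 0.581 with them (rho = 0.53, permutation p = 0.00492, adjusted p = 0.0541; 0.506 without the 2 farthest libraries). Cplx2 had r = -0.607 (rho = -0.521, permutation p = 0.0464, adjusted p = 0.196; -0.553 without the 2 farthest). Neuron markers, 6 genes, had their highest median share in nodose at ZT4, where Cplx2 was highest, at 0.00273% of counts, followed by 0.00255% at ZT16, where Cplx2 was lowest. The median was 0.00221% at ZT22 and 0.00192% at ZT10. Within groups Cplx2 had r = 0.498 with them (rho = 0.462, permutation p = 0.0524, adjusted p = 0.199; 0.274 without the 2 farthest libraries), and their part in its rhythm was not tested. With muscle and adipocyte scores in the fit the nodose peak of Dhrs7 moved from ZT18.4 to ZT20.3 and that of Cplx2 from ZT3.95 to ZT4.74.

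The 4 relations that passed by Pearson's r concerned Cplx2 and Sdc4, and 3 of them had an adjusted p of 0.0590 by Spearman's rho in the same permutation test. The other one, arcuate Cplx2 with library depth, had 0.0011. Cplx2 in nodose was lower in libraries with more counts (r = -0.595, rho = -0.618, permutation p = 0.00294, adjusted p = 0.0481; -0.616 without the 2 farthest). In arcuate it was higher in libraries with more counts (r = 0.735, rho = 0.778, permutation p = 8e-05, adjusted p = 0.0044; 0.84 without the 2 farthest). Arcuate Cplx2 also rose with astrocyte markers (r = 0.865, rho = 0.799, permutation p = 0.0035, adjusted p = 0.0481; 0.754 without the 2 farthest). Arcuate Sdc4 had the weakest of the 4, with astrocyte markers (r = 0.355, rho = 0.59, permutation p = 0.00211, adjusted p = 0.0481; 0.483 without the 2 farthest). The part of library depth and of these cell types in the rhythms was not tested.

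**Figure D4:**
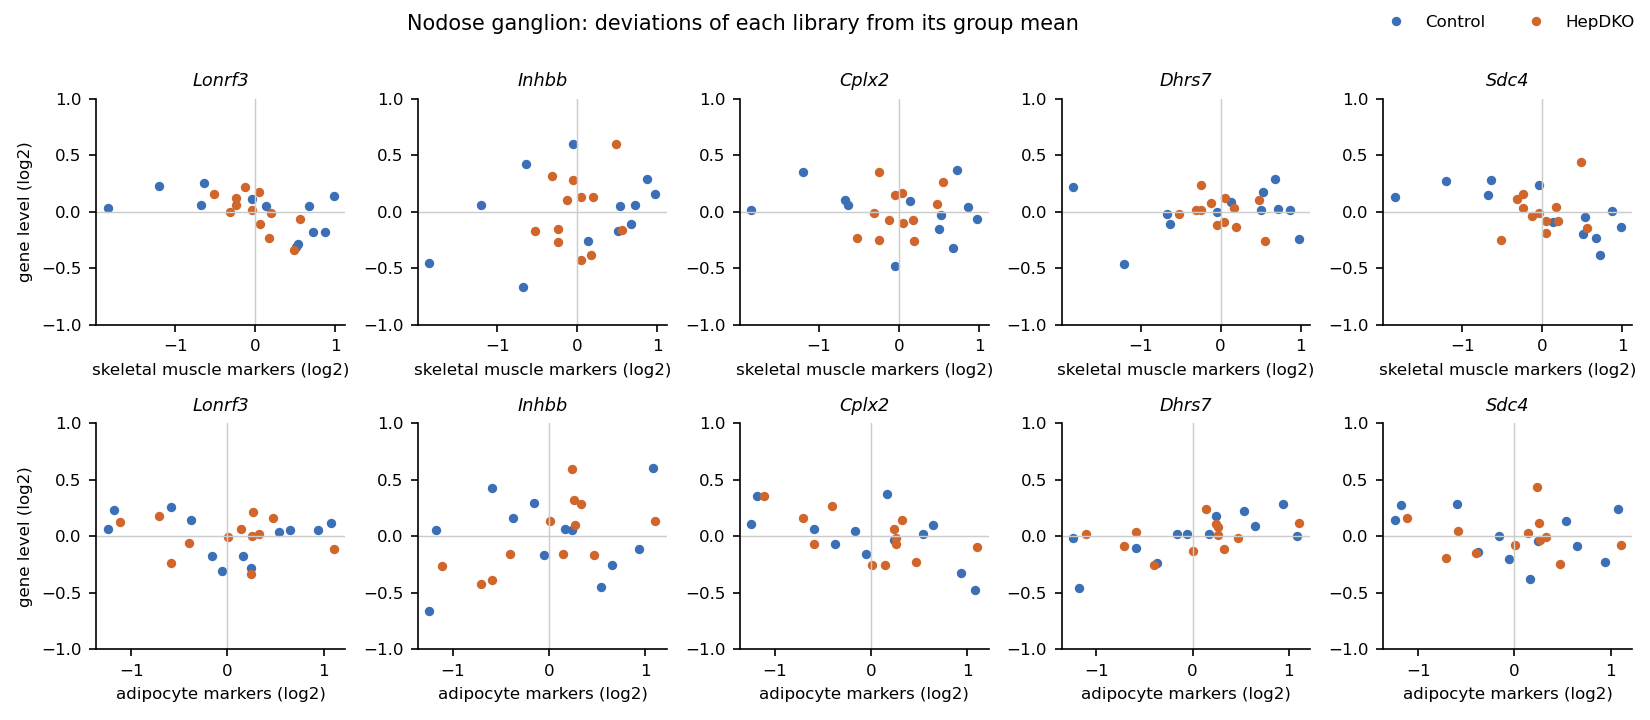
Nodose libraries as deviations from their group mean: log2 level of each gene against the log2 summed share of 5 skeletal muscle markers (upper row) and 5 adipocyte markers (lower row), Control in blue and HepDKO in orange. Lonrf3 slopes down with muscle markers (r = -0.504), Cplx2 slopes down with adipocyte markers (r = -0.607) and Dhrs7 slopes up with them (r = 0.581). None of these slopes passed adjustment (adjusted p = 0.181, 0.196 and 0.0541 by permutation within groups).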

How the data were processed

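RNA was sequenced in 48 libraries, 24 from arcuate nucleus and 24 from nodose ganglion. The authors deposited raw counts per gene symbol in 1 table. Per the submitters' processing notes, FastQC 0.11.7, Trim Galore 0.6.10, STAR 2.7.10b and mm10 were used; the counting tool, its annotation and its strand setting are not given in the sources used here. Of 25229 symbols, 24366 matched GENCODE and 18651 the RefSeq promoters, the 5 genes among both. The 5 genes, the gene lists and the tests were chosen with earlier results of these data known.

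The libraries of a tissue were fitted by themselves in edgeR 4.0.16 under R 4.3.3, with filterByExpr on the groups (16102 arcuate and 14867 nodose genes left), TMM factors and a robust quasi-likelihood fit with 1 mean for each group. P-values were adjusted by Benjamini-Hochberg over all genes tested, with a threshold of 0.05. The 24-h component came from the differences ZT4 to ZT16 and ZT10 to ZT22, and SEs of amplitude and peak by the delta method. With times 6 h apart, a 12-h component is the only other rhythm that can be fitted, and only in part. A 12-h rhythm that peaks midway between sampled times cannot be seen. The tissue difference in rhythm was an F test with 2 degrees of freedom on both fits, and tissue levels came from 1 fit over 48 libraries. Arcuate depth had a median of 17324244 counts and nodose depth 6641665, so nodose levels are less precise. Log2 CPM for correlations used a prior count of 2. The named genes are the 5 members, up to 3 genes a list with the lowest adjusted p under 0.05, and the 3 genes most like each member. Lonrf1, Fst and Fstl3 were named after their values were seen. Alternatives were DESeq2 1.42.0, RLE factors, no filter, a replicate block, marker scores as covariates, 1 fit over 48 libraries and leaving out each library. The edgeR, DESeq2 and tissue-difference tests were run on simulated counts, drawn for each gene by itself without shared variation in tissue makeup. That run concerns the calculation and not how the tests behave in these libraries.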

Additional observations from a re-analysis of the deposited data

How the results depend on the processing

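Averaged over genotypes, the amplitudes moved most as a ratio, other than by leaving out libraries, with both scores in nodose, from 0.203 to 0.156 for Sdc4 and from 0.495 to 0.392 for Cplx2. Leaving out 1 library gave 0.0275 to 0.0976 for arcuate Inhbb and 0.0256 to 0.0651 for arcuate Cplx2, where the main values were 0.0617 and 0.0518; the other 8 amplitudes stayed within 1.5 times. None of the 5 genes gained or lost a call between genotypes or for the 12-h component. Counts over all genes moved more. With DESeq2 in place of edgeR, calls were 1117 (arcuate) and 383 (nodose) for the averaged 24-h rhythm against 622 and 198, 108 and 135 in Control against 42 and 36, 380 and 73 in HepDKO against 61 and 18, 20 and 7 for the 12-h component against 2 and 0, 23 and 3 for HepDKO minus Control over all times, 7 and 1 at any time, 1 for the arcuate rhythm difference between genotypes and 12 for tissue by genotype, the last 4 against 0. With the muscle score as a covariate nodose calls were 318 for the averaged rhythm and 58 in Control, and with the adipocyte score added 36 in HepDKO. The tissue difference in rhythm gave 58 calls, 116 with the muscle score, 35 with both scores, 169 in 1 fit over 48 libraries and 115 with pooled degrees of freedom, which was chosen after seeing the data. The nodose 12-h component of Sdc4 turned from 0.0106 to -0.0222 with the muscle score and -0.0224 with both. DESeq2 was not run for the tissue difference in rhythm. The cause of these moves was not tested.

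Leaving out each library in turn gave 287 to 1031 calls (arcuate) and 129 to 276 (nodose) for the averaged rhythm, 11 to 117 and 15 to 71 in Control, 31 to 312 in arcuate HepDKO, 14 to 27 in nodose HepDKO, 2 to 10 and 0 to 1 for the 12-h component, 0 to 7 and 0 to 1 for HepDKO minus Control over all times, 0 to 8 for tissue by genotype and 20 to 66 for the tissue difference in rhythm. Small values without a call changed sign in this way. For the 12-h component the ranges were -0.0108 to 0.00939 for arcuate Cplx2, -0.0186 to 0.000536 for arcuate and -0.0233 to 0.0141 for nodose Dhrs7, -0.00778 to 0.0300 for arcuate Inhbb, -0.0312 to 0.0190 for arcuate Lonrf3 and -0.00785 to 0.0443 for nodose Sdc4. For HepDKO minus Control, Inhbb ranged from -0.0365 to 0.0399 in arcuate and from -0.204 to 0.00365 in nodose. For tissue by genotype the ranges were -0.21 to 0.00642 for Inhbb, -0.0928 to 0.00744 for Lonrf3 and -0.0329 to 0.0761 for Sdc4.

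Same-numbered Control and HepDKO libraries deviated together (correlation over 0.1) in 0 of 12 arcuate and 7 of 12 nodose pairs. In nodose their median correlation was 0.143, against -0.0708 for libraries of other numbers. As not every pair passed 0.1, the numbers were not taken as a pairing. This rule is no test of pairing, so same-numbered nodose libraries may share variation. With the replicate block, calls for the averaged rhythm were 677 in arcuate and 190 in nodose, the tissue difference in rhythm gave 57, and HepDKO minus Control over all times gave 0 in both tissues. Depth limits Inhbb most, at 12 counts in the shallowest nodose library.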
